A study of Mus musculus with 24 samples.

Results

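Oxidative phosphorylation subunits are the protein parts of the respiratory chain and of ATP synthase. The set described here was taken by gene symbol: Nduf genes other than the Ndufaf assembly factors, Uqcr, Cox4 to Cox8 and Atp5 genes, the Sdha, Sdhb, Sdhc and Sdhd genes, Cyc1 and Cycs. It left out Cox7a1 and Cox8b by name and 11 pseudogenes. It held 85 nuclear genes of the 30699 genes in any of the 4 deposited tables: 36 of complex I, 4 of complex II, 9 of complex III, 18 of complex IV, 17 of complex V, and cytochrome c. Ndufa4 and Ndufa4l2 were placed with complex IV, where the Ndufa4 protein is now assigned. The 13 protein genes of the mitochondrial genome, with the prefix mt-, were set beside them.

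The RNA came from C57BL/6 mice, from their white (WAT) and their brown (BAT) adipose tissue. Every mouse had received 2 injections of an oligonucleotide of locked nucleic acid (LNA), a modified nucleotide with tight base pairing, at 25 mg/kg under the skin. It was antisense to miR-224 in the antimiR-224 groups and to miR-452 in the antimiR-452 groups. Its sequence was scrambled in the scramblemiR groups, so controls carried an LNA oligonucleotide too. Each of the 6 groups of tissue and treatment had 4 libraries of mRNA selected on poly(A) tails. The age and sex of the mice and the site of the white fat are not named in the labels used here.

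Complexes I to IV pass electrons from NADH and succinate to oxygen. Complexes I, III and IV pump protons across the inner mitochondrial membrane, and complex V uses their return to make ATP. Complex II is encoded by nuclear genes alone, and the other complexes combine nuclear subunits with subunits made inside the mitochondrion. Brown adipocytes are rich in mitochondria and burn fuel to make heat through the uncoupling protein Ucp1. White adipocytes hold fewer mitochondria and store fat.

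Promoter sequences are shown first as background, since genes of this kind are known to carry sites for the factors NRF-1, GABP, YY1 and ERR. RefSeq (GRCm38.p6) gave a promoter for 66 of the 85 members, and the 250 bases before each gene start were searched on both strands. The NRF-1 letters GCGCANGCG were found in 14 of 66 members (21.2%) and in 5.33% of all 27025 promoters of that length. The GABP letters CCGGAAGT were found in 3 members (4.55%) against 2.93% of all promoters. The ERR letters TCAAGGTCA were found in 1 member, Atp5g3 (1.52%, against 0.366%), and the YY1 letters AAGATGGCG in 0 members (against 0.607%). NRF-1 matches were in 13 of 61 members called higher in BAT than in WAT controls and in 1 of the 5 others. A match is a description of the letters, and no binding was measured. A link between matches and the levels given below was not tested. The sequences below run 5′ to 3′ along the strand of the gene, with matches in capitals. Ndufb4, Sdha and Cox6a1 have 3 NRF-1 matches each, the most among the members, and in Cox6a1 matches on both strands overlap in 1 run of capitals. Cycs and Ndufs6 are shown as examples with a single NRF-1 match on the reverse strand, Atp5h has an NRF-1 and a GABP match, and Atp5g3 has the ERR match on the reverse strand. No motif overlaps one of another factor in these windows.
Ndufb4 (chr16:37654369-37654618, minus strand): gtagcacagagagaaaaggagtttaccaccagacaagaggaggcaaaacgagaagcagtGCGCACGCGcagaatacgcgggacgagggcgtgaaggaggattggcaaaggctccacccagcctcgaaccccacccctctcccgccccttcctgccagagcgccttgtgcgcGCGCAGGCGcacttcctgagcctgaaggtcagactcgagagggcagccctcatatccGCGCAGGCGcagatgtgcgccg
Sdha (chr13:74350241-74350490, minus strand): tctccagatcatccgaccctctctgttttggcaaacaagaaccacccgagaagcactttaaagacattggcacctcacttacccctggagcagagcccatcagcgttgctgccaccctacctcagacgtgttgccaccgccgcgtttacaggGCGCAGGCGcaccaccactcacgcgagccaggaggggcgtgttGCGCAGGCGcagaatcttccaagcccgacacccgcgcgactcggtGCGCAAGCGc
Cox6a1 (chr5:115348959-115349208, minus strand): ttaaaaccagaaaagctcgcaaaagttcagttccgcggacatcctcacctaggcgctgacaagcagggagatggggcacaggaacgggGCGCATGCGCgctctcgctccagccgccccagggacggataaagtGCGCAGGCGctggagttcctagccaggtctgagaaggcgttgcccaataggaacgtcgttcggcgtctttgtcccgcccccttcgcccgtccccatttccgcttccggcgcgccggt
Cycs (chr6:50566570-50566819, minus strand): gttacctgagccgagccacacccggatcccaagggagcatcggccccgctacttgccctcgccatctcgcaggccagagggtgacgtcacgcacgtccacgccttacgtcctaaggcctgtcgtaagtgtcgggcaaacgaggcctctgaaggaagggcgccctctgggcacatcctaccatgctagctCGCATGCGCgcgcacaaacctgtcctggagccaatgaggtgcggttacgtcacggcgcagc
Ndufs6 (chr13:73328483-73328732, minus strand): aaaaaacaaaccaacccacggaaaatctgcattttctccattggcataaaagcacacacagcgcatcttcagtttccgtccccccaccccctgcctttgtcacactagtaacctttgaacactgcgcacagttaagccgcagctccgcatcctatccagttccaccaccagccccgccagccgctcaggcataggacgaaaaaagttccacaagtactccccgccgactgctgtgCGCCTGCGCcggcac
Atp5h (chr11:115419920-115420169, minus strand): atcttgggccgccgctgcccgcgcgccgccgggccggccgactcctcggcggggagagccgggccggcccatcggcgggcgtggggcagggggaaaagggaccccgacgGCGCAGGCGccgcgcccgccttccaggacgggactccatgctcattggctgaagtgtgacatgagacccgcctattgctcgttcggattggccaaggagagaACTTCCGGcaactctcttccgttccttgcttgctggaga
Atp5g3 (chr2:73911327-73911576, minus strand): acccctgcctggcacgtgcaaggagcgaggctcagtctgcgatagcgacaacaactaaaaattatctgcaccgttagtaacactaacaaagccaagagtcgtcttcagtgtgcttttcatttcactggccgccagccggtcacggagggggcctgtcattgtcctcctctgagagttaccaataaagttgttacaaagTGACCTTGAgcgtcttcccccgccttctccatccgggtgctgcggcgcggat

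The authors' deposited tables give group means of normalized counts. Reads of single libraries were recovered from those means by arithmetic, for 85 and 84 of 85 members in the WAT antimiR-224 and antimiR-452 tables and for 78 and 74 of 83 members in the BAT tables. Libraries are numbered within a group by falling size factor, the relative depth that normalization divides out, since recovered values cannot be tied to sample titles. Control libraries held 22175430 to 27935908 reads in genes in WAT and 16960694 to 20255777 in BAT. Some libraries held marker genes of other tissues. Summed normalized counts of recovered skeletal muscle genes were 724001 and 827620 in BAT scramblemiR libraries 1 and 2 and 360867 in BAT antimiR-224 library 1, against 1364 to 12986 in the other 5 libraries of that table. For BAT antimiR-452, 7 of 12 muscle genes were recovered, and library 1 held 529671 against 1928 to 33566 in the other 3 antimiR-452 libraries. Sperm-lineage genes summed to 34530 in WAT scramblemiR library 2, and to 9885 and 2679 in WAT antimiR-224 libraries 3 and 4, against 25 to 648 in the other 5. Genes of ciliated or tubule epithelium summed to 7416 to 16093 in WAT antimiR-224 libraries 1 and 2 and WAT antimiR-452 libraries 1, 2 and 3, against 423 to 2077 in the other WAT libraries. Brown adipocyte markers summed to 18661 to 34652 in BAT controls over 8 of 10, all above 0, and to 1503 to 2861 in WAT controls over 9. A marker was summed only where its reads were recovered in every library of the comparison, inhibitor groups included. The sums thus cover different genes on separate scalings. The list of 10 includes Cox7a1 and Cox8b, complex IV genes left out of the members by name. It is therefore not independent of the members. The labels do not say that libraries came from separate mice, so p-values measure the spread between these libraries.

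Nuclear subunits of every complex were more abundant in brown than in white fat of control mice. limma on the recovered reads of both scramblemiR groups, with 1 scaling over the 8 libraries, tested 84 members and called 75 higher in BAT and 0 lower at an adjusted p under 0.05. Across all 16825 genes tested, 19.9% were called higher and 22.1% lower, together 42.0%. The fit treated the 8 libraries as independent, although some mice may have given both tissues. The median member was 4.0-fold higher in BAT (log2 difference 2.0), while the median of all genes was -0.08. In 74 of the 84 members all 4 BAT libraries lay above all 4 WAT libraries, which held for 19.8% of all genes. In bulk tissue, fewer cells of a type and less RNA per cell cannot be told apart. The scaling matters for the level. With libraries scaled by their total reads, the median of all genes shifted to -0.61 and that of the members to 1.47. With total reads outside the mitochondrial genes these medians were -0.47 and 1.61. A change of scaling moves all genes by almost the same amount, and the members stood 2.08 above all genes under each. This gap is nearly fixed by arithmetic and is no check on the scaling. Under these scalings 72 and 74 members were called higher. Genes called higher made up 47.4% of all calls, and 18.5% and 24.2% under these 2 scalings.

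**Figure D1:**
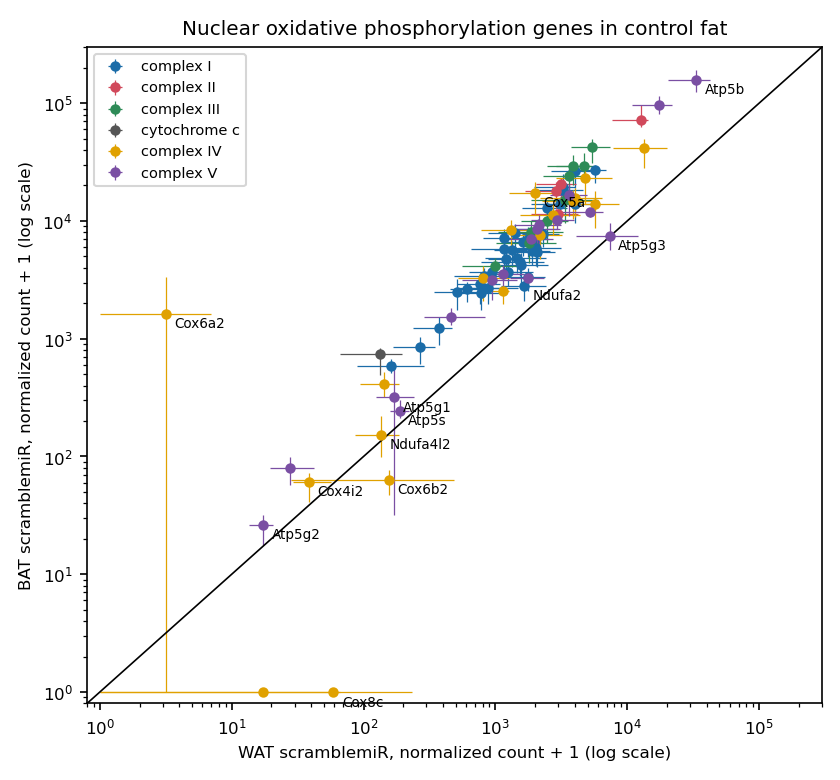
Level of each nuclear subunit in BAT (vertical) and WAT (horizontal) scramblemiR libraries, as the mean normalized count of 4 libraries on log axes, with whiskers from the lowest to the highest library and the line of equal levels. Members called higher in BAT, 75 of 84 tested, lie above the line, and the paralogues Atp5g3, Ndufa4l2 and Cox6b2, not called, lie near or under it.

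Complex I takes electrons from NADH through a flavin and a chain of iron-sulphur clusters. Each of its 36 nuclear subunits was called higher in BAT, with a median log2 difference of 2.0 and a range from 0.80 to 2.73. Its geometric mean was 1317, 869, 1263 and 1927 in WAT libraries 1 to 4, and 3740, 5538, 5901 and 5069 in BAT libraries 1 to 4. The groups did not overlap, and WAT library 2 and BAT library 1 were the lowest of their groups. Ndufv1, which carries the NADH site and the flavin, read 4414, 2636, 3738 and 5391 in WAT and 19100, 26029, 29208 and 31397 in BAT. Its log2 difference of 2.73 (SE 0.25, limma adjusted p 4.54e-05) was the largest in the complex. Other core subunits followed: Ndufs8, Ndufs1, Ndufv2, Ndufs3 and Ndufs7, which hold clusters or line the quinone site, differed by 2.63, 2.61, 2.41, 2.11 and 2.08. The smallest difference was that of the accessory subunit Ndufa2, 0.80 (SE 0.25, limma adjusted p 0.0265). Its BAT libraries read 2097, 3298, 3305 and 2527 and its WAT libraries 1438, 1099, 1620 and 2428, so WAT library 4 overlapped the BAT group.

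Complex II, succinate dehydrogenase, also belongs to the citric acid cycle. All 4 of its genes were called higher in BAT, with a median log2 difference of 2.60. Sdhb, the iron-sulphur subunit, read 3276, 2020, 3145 and 4111 in WAT and 14853, 21543, 22970 and 22359 in BAT (log2 difference 2.73, SE 0.24, limma adjusted p 3.96e-05). Sdha, the flavoprotein, differed by 2.53 (SE 0.27), and the membrane anchors Sdhd and Sdhc by 2.68 and 1.99.

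Complex III passes electrons from quinol to cytochrome c, and all 9 of its nuclear genes were called higher, with a median of 2.24. Uqcrc1, a core subunit on chromosome 9 (GRCm38, 108936633 to 108949623), read 5818, 3724, 4658 and 7344 in WAT and 30887, 42246, 49193 and 47891 in BAT. Its difference of 3.0 (SE 0.25, limma adjusted p 2.96e-05) was close to those of the redox subunits Cyc1, or cytochrome c1, at 2.95 (SE 0.27) and Uqcrfs1, the Rieske iron-sulphur protein, at 2.76 (SE 0.25). Uqcrc2, the other core subunit, differed by 2.67. Cycs, the mobile carrier cytochrome c, read 157, 65.0, 116 and 195 in WAT and 493, 835, 827 and 820 in BAT (2.55, SE 0.33, limma adjusted p 0.000278). Of the 50-base stretches in its annotated transcripts, 26.1% are found in transcripts of other genes, and the authors' counting of such reads is not given, so its level is uncertain.

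Complex IV reduces oxygen, and 12 of its 17 genes tested were called higher, with a median of 1.83. Cox5a, on chromosome 9 (57521274 to 57532426), showed the largest difference of any called member. It read 1822, 1259, 1788 and 3148 in WAT and 11471, 19324, 21365 and 17038 in BAT, a log2 difference of 3.15 (SE 0.29, limma adjusted p 4.54e-05). Cox7b differed by 2.73 (SE 0.29), Cox5b, the zinc-binding subunit, by 2.06 (SE 0.29), and Cox4i1, the common isoform of subunit 4, by 1.69 (SE 0.30). The members not called were mostly isoforms known from other tissues. They set the geometric mean of complex IV, whose ratio of BAT over WAT was 2.73 with all 18 genes and 3.89 with 12 genes after such isoforms were removed.

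Paired isoforms of complex IV differed within the same libraries. Cox6a1, the broadly expressed isoform of subunit 6a, read 4123, 2894, 4369 and 7656 in WAT and 13880, 23657, 30518 and 25002 in BAT (2.32, SE 0.33, limma adjusted p 0.000428). Cox6a2, the isoform of heart and skeletal muscle, read 3348, 3159, 0 and 7.41 in BAT and 0 to 5.95 in WAT (5.32, SE 2.74, limma adjusted p 0.157). Both high libraries, BAT 1 and 2, are those with high muscle genes, and the part of muscle RNA in this result was not tested. Cox6b2, the testis isoform of subunit 6b, read 53.1, 486, 55.9 and 27.2 in WAT and 46.0, 75.6, 71.5 and 56.3 in BAT (-0.37, SE 0.77). Its high value was in the WAT library high in sperm-lineage genes, and without that library the difference was 0.49. Cox8c and Cox7b2, also known from testis, held 233 and 65.0 normalized counts in that library and 0 reads in the other 7 controls, where a count of 0 allows up to 3 reads by counting error alone. Cox6b1, Cox7a2, Ndufa4 and Cox8a, the common isoforms, were each called higher in BAT (2.04, 1.83, 1.97 and 1.32). The counterpart of Ndufa4, Ndufa4l2, a gene known to respond to low oxygen, had a difference of 0.19 (SE 0.33; -0.33 with total-read scaling), and Cox4i2, a lung isoform, of 0.68 (SE 0.32, limma adjusted p 0.115).

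Complex V had 13 of 17 genes called higher and a median of 1.78. Atp5b, the catalytic beta subunit, read 38450, 20318, 32568 and 42096 in WAT and 123764, 152309, 163441 and 192639 in BAT (2.28, SE 0.28, limma adjusted p 0.000201). Atp5a1, the alpha subunit, differed by 2.51 (SE 0.25) and Atp5c1, the gamma subunit of the central stalk, by 1.26 (SE 0.24). The ring that turns in the membrane is built from subunit c, which 3 genes encode, and 0 of the 3 were called. Atp5g3, the most abundant of them in both tissues, read 7113, 4104, 6334 and 12065 in WAT and 8146, 9517, 6717 and 5615 in BAT (0.10, SE 0.31, limma adjusted p 0.817). All 4 of its BAT values lay within the WAT range, while the alpha, beta and gamma subunits did not overlap in the same libraries. Its sign turned with total-read scaling (-0.43). Atp5g2 read 12.4 to 31.1 in the 8 libraries (0.58, SE 0.37). Atp5g1 read 148, 124, 165 and 241 in WAT and 556, 628, 58.6 and 31.1 in BAT (-0.04, SE 0.996). Without BAT libraries 1 and 2, both high in muscle genes, Atp5g1 was called lower in BAT (-1.92, SE 0.37, limma adjusted p 0.00608) and 74 other members were called higher, beside 34.8% of all genes called and 18.4% called lower. That leaves 2 BAT libraries, and the set without them was chosen after the values were seen. Of the 50-base stretches in Atp5g1 and Atp5g2 transcripts, 11.1% and 38.3% are found in those of other genes. Atp5s, a coupling factor with a different fold, had a difference of 0.38 (SE 0.18, limma adjusted p 0.117; -0.14 with total-read scaling).

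**Figure D2:**
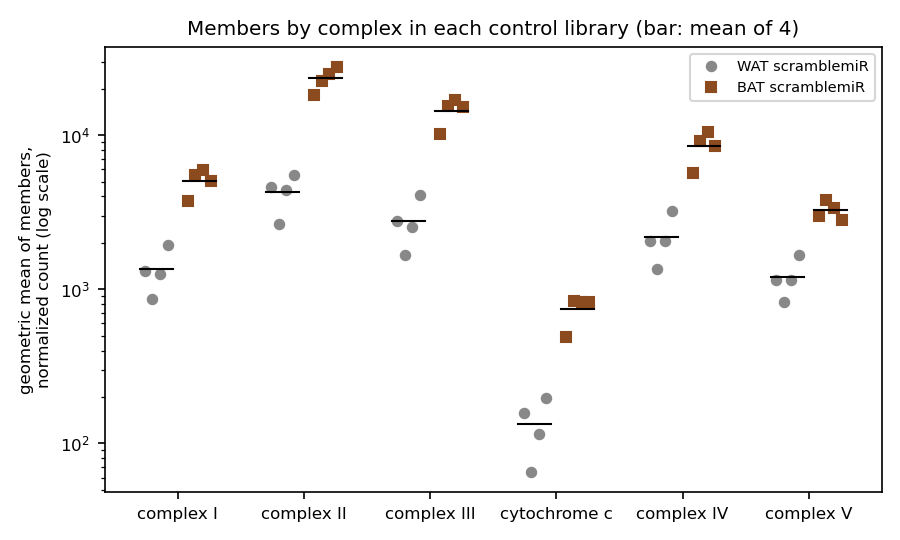
Geometric mean of the normalized counts of each complex's nuclear members in each of the 4 WAT and 4 BAT scramblemiR libraries (points, log axis), with a bar at the mean of the 4. Complex IV is drawn from 12 genes, without Cox6a2, Cox6b2, Cox7b2, Cox8c, Cox4i2 and Ndufa4l2. BAT points lie above WAT points in every complex, and the ratio of means runs from 2.71 in complex V to 5.58 for cytochrome c.

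Per kilobase of exon, the order of the subunits was led by a few genes in both tissues. In BAT, Atp5b stood first at 37300 ± 6723 normalized counts per kilobase (SD, n = 4), followed by Cox6a1 at 33140 ± 9865 and Atp5a1 at 31045 ± 4674. These neighbours do not differ beyond their spread. Cox4i1 (26775 ± 6005), Cox8a (22716 ± 6301) and Cox6b1 (22330 ± 5094) came next. In WAT the order began with Cox8a at 9256 ± 3437 per kilobase, then Cox4i1 at 8582 ± 3223, Atp5b at 7873 ± 2251 and Cox6a1 at 6781 ± 2899, again within their spread. The same 6 genes filled the first 6 places in both tissues. Exon length is that of all annotated exons, so a gene with a long rare exon is placed too low.

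The mitochondrial genes stood higher in BAT as well. Reads in mt- genes were 3.92, 2.55, 3.34 and 5.09% of all reads in genes in WAT libraries 1 to 4 and 10.9, 11.8, 13.9 and 13.5% in BAT. The nuclear members took 1.31, 0.960, 1.24 and 1.73% in WAT and 3.21, 4.15, 4.79 and 4.41% in BAT. Both shares were lowest in WAT library 2 and BAT library 1. limma called 10 of 10 mt- protein genes tested higher in BAT, with a median log2 difference of 2.37. Without mt-Co2, mt-Co3 and mt-Atp6, whose low counts are described next, it was 7 of 7 with a median of 2.43. The largest was mt-Nd6, the 1 complex I gene on the light strand, which read 773, 259, 696 and 1065 in WAT and 4813, 6412, 7334 and 7147 in BAT (3.35, SE 0.39, limma adjusted p 0.000186). mt-Nd5 had the smallest, 1.67 (SE 0.27), and mt-Cytb, the complex III subunit, and mt-Co1, the catalytic complex IV subunit, differed by 2.43 and 2.24. In WAT controls mt-Nd6 held 378 to 1253 reads, against 78377 to 157127 for mt-Nd1. How fully selection on poly(A) tails captured mt-Nd6 was not tested, so its level and difference are uncertain.

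Some mt- genes were listed near 0. mt-Nd3, mt-Nd4l, mt-Atp6, mt-Co3 and mt-Co2 share 98.0 to 100% of their 50-base stretches with transcripts of other genes. Their levels were low: mt-Co2 read 4.59, 1.37, 13.99 and 7.65 in WAT and 26.1, 21.8, 44.3 and 31.1 in BAT, while mt-Co1 of the same complex read 103222 to 263601 in WAT. mt-Atp8 shares 0% and held 0 or 1 reads in each control. Its end (bases 7766 to 7969) overlaps the start of mt-Atp6 (from 7927), and how reads in both genes were counted is not given. Stretches were compared with annotated transcripts only, so copies elsewhere in the genome were not searched for. The part of shared sequence in these counts was not tested, and the counts of these 6 genes are not read as a measure of their RNA. mt-Nd4 and mt-Co1 share 62.2 and 51.1% and stood among the abundant genes, and their levels are uncertain too.

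**Figure D3:**
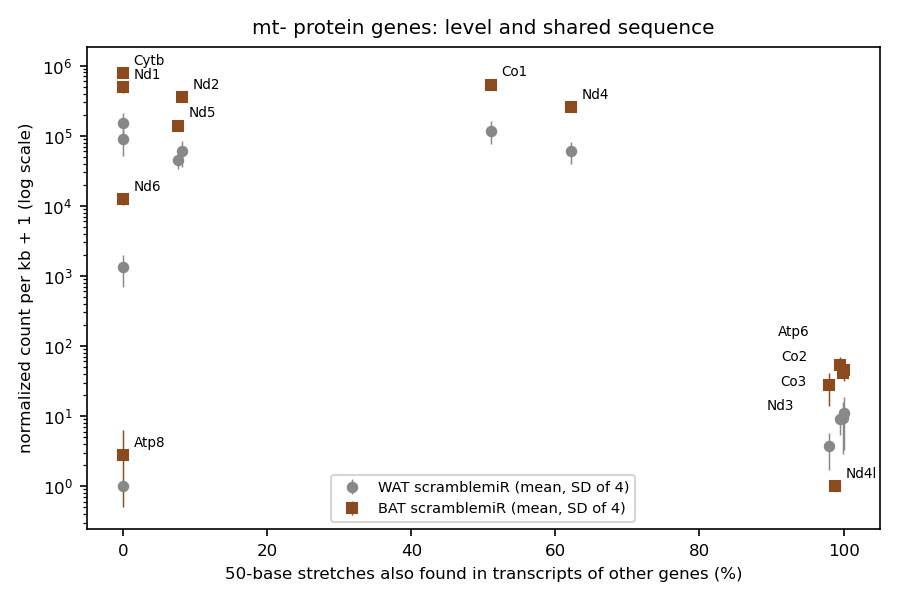
Normalized counts per kilobase of the mitochondrial protein genes (log axis; mean and SD of 4 scramblemiR libraries in each tissue) against the percent of each gene's 50-base stretches found in transcripts of other genes. Genes with 98.0 to 100% shared stretches sit orders of magnitude under the others in both tissues, apart from mt-Atp8, which shares 0% and is also near 0.

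Inhibition of miR-224 in WAT left no subunit past the test. Of 85 members 0 had an adjusted p under 0.05 in the authors' deposited table, and 1 gene of 29128 did (0.00343%). At an unadjusted p under 0.05 the table held 1 member, Ndufs1, and 1.55% of genes. The direction was shared: 81 of 84 members with a mean of at least 10 had a ratio below 1, as did 52.9% of all such genes. The median deposited log2 ratio was -0.33 for the members and -0.02 for all genes, and by complex it was -0.29, -0.35, -0.48, -0.39 and -0.31 for I to V. limma on the recovered reads called 0 members and 0 genes. At an unadjusted p under 0.05 it had 0 members and 1115 of 17865 genes (6.24%), and 78 of 84 members were below 0 with a median of -0.27.

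The 3 members with the smallest p in the WAT antimiR-224 comparison were Ndufs1, Uqcrc1 and Cyc1. Ndufs1, the largest iron-sulphur subunit of complex I, read 5361, 2708, 4183 and 5402 in scramblemiR and 2920, 2711, 3446 and 3329 in antimiR-224 libraries 1 to 4. Its ratio in the authors' deposited table was 0.703 (unadjusted p 0.0451, adjusted p 1), and limma gave -0.46 (SE 0.22, adjusted p 0.798). ScramblemiR library 2 lay at the bottom of its group and overlapped the inhibitor libraries. Uqcrc1 read 7858, 5116, 6249 and 9925 against 5285, 4728, 5373 and 5483, and Cyc1 5622, 3363, 4716 and 7151 against 3738, 3346, 3931 and 3699. Inhibitor libraries lay close together and controls were spread: the geometric mean of 79 members read 2088, 1390, 2000 and 3048 in scramblemiR and 1603, 1757, 1684 and 1845 in antimiR-224. Geometric means in the inhibitor comparisons leave out Cox6a2, Cox6b2, Cox7b2, Cox8c, Cox4i2 and Ndufa4l2, and members without recovered reads. Control library 4 was the highest of the 8 for 78 of 84 members and control library 2 the lowest for 64. Without control library 4 the median of the members was -0.08, and without control library 2 it was -0.45.

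Control library 2 and antimiR-224 libraries 3 and 4 are those high in sperm-lineage genes. Without these 3 libraries, 3 controls against 2, limma called 1391 of 16982 genes (8.19%) and 3 members, all lower, beside 1.87% of genes called lower. The 3 were Ndufs1 (-0.81, SE 0.16, adjusted p 0.0340), Sdha (-0.72, SE 0.15, adjusted p 0.0353) and Sdhb (-0.71, SE 0.16, adjusted p 0.0454). The median of the members was then -0.49. Both inhibitor libraries lay below the 3 controls in 56 of 84 members, against 19.2% of all genes. Both of those inhibitor libraries are the ones high in epithelium genes, and the part of other cell types in the result was not tested. Markers of adipocytes, 3 of 10 recovered, summed to 61125, 37597, 54979 and 74880 in the 4 controls and 34915, 33750, 41469 and 48335 in the inhibitor libraries, so among the controls library 2 was lowest and 4 highest.

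Among members with a mean of at least 10, Cox8c had the lowest deposited ratio and Cox7a2l the highest. Cox8c read 0, 319, 0 and 0 in scramblemiR and 1.74, 0, 70.9 and 15.5 in antimiR-224, highest in each group in the library with the most sperm-lineage RNA. Its log2 ratio of group means in the authors' deposited table was -1.86, while limma, which averages logs, gave 0.84 (SE 2.19), so the sign depends on the summary. Cox7a2l, a paralogue of Cox7a2, read 1496, 1275, 1688 and 1721 in scramblemiR and 1956, 2204, 1703 and 1725 in antimiR-224 (limma 0.30, SE 0.13). It is near the controls in inhibitor libraries 3 and 4.

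Inhibition of miR-452 in WAT gave similar values, against the same 4 controls. Of 29079 genes 0 (0.0%) passed the test in the authors' deposited table, members included, with 702 genes (2.41%) and 0 members at an unadjusted p under 0.05. A ratio below 1 was found for 81 of 84 members and 56.8% of all genes, with a median log2 ratio of -0.26 and -0.04. limma also called 0 members and 0 genes, with 789 of 17781 genes (4.44%) and 0 members at an unadjusted p under 0.05. The smallest deposited p among the members was that of Sdhb. It read 4427, 2794, 4251 and 5606 in scramblemiR and 2722, 2878, 3516 and 4312 in antimiR-452 (ratio 0.786 in the authors' deposited table, unadjusted p 0.176). Ndufb9, a complex I accessory subunit, read 5567, 3136, 5097 and 7899 against 2912, 3869, 4488 and 4764 (limma -0.39, SE 0.28, adjusted p 0.998).

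The antimiR-452 libraries in WAT also differed among themselves. Library 1 was the lowest of the 8 for 48 of 83 members and control library 4 the highest for 77. The geometric mean of 78 members read 1314, 1776, 1903 and 1956 in antimiR-452 and 2005, 1347, 1937 and 2962 in scramblemiR. Erythroid genes summed to 65030, 64485, 13963 and 29625 in scramblemiR and to 8788, 3343, 5182 and 7777 in antimiR-452, with no overlap. Skeletal muscle genes summed to 16012 and 3691 in antimiR-452 libraries 3 and 4, against 703 to 1629 in the other 6, and the part of either list in the members' values was not tested. Without control library 4 the median of the members was -0.03 in place of -0.22. Without the 3 inhibitor libraries high in epithelium genes, 1 inhibitor library was left, 48 of 83 members were below 0, and the median was -0.04. Cox8c read 0, 322, 0 and 0 in scramblemiR and 3.37, 2.85, 2.11 and 0 in antimiR-452. Atp5g2 had the highest deposited ratio among members with a mean of at least 10, with 16.8, 23.7, 22.1 and 26.7 against 28.6, 28.5, 33.8 and 15.5, and overlapped.

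In BAT most subunits had a ratio above 1 and 0 passed the adjusted test. With antimiR-224, 79 of 83 members had a ratio above 1 in the authors' deposited table, against 44.5% of genes with a mean of at least 10. The median log2 ratio was 0.58 for members and -0.05 for all genes. By complex the medians were 0.63, 0.40, 0.60, 0.60 and 0.46 for I to V. The test called 0 of 24084 genes (0.0%) and 0 members, and 16 members had an unadjusted p under 0.05, all with a ratio above 1, among 276 genes (1.15%). limma on recovered reads called 0 members and 0 of 14488 genes, with 42 of 78 members among 870 genes (6.0%) at an unadjusted p under 0.05. Its median for the members was 0.57, and 74 of 78 were above 0.

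All 4 antimiR-224 libraries lay above all 4 controls in 32 of 78 members, against 2.75% of all genes, and below in 0, against 1.24%. Complex I had 17 of 36 such members, among them Ndufa2, Ndufa6, Ndufa7, Ndufa9, Ndufa11, Ndufa12, Ndufa13, Ndufb3, Ndufb6, Ndufb9, Ndufb10, Ndufb11, Ndufc2, Ndufs4, Ndufs6 and Ndufv2. Most of these are accessory subunits around the core, and Ndufv2 belongs to the core. Complex II had Sdhb, 1 of 3 recovered. Complex III had 4 of 8, the small subunits Uqcr10, Uqcr11, Uqcrh and Uqcrq. Complex IV had 4 of 15: Cox6b1, Cox6c, Cox7a2 and Ndufa4. Complex V had 6 of 15: Atp5e of the central stalk, Atp5h and Atp5o of the peripheral stalk, and the membrane-side subunits Atp5j2, Atp5k and Atp5mpl.

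Ndufa2 and Ndufs6 had the smallest p. Ndufa2 read 1558, 2488, 2447 and 1855 in scramblemiR and 3521, 3152, 5974 and 2711 in antimiR-224. Its ratio in the authors' deposited table was 1.84 (unadjusted p 0.0237, adjusted p 1), and limma gave 0.84 (SE 0.27, adjusted p 0.729). The lowest inhibitor library, number 4, stood just above the highest control. Ndufs6, a zinc-binding subunit needed late in complex I assembly, read 1470, 2643, 2557 and 2025 against 3607, 3265, 6205 and 2904 (limma 0.85, SE 0.28, adjusted p 0.729). Ndufa11, which joins the membrane arm, read 1475, 2391, 2363 and 1814 against 3676, 2465, 4891 and 2577 (limma 0.73, SE 0.26). In each of the 3, antimiR-224 library 3 was the highest.

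Uqcrq, a small complex III subunit next to cytochrome b, had the highest ratio. It read 7103, 13140, 14313 and 10109 in scramblemiR and 19310, 16048, 33767 and 15272 in antimiR-224 (ratio 1.89 in the authors' deposited table, unadjusted p 0.0509). Sdha, Atp5a1, Atp5b, Uqcrc1 and Cox4i1 had no recovered reads in this comparison, so the fit and the counts by library leave them out. Their deposited log2 ratios were 0.08, 0.21, 0.26, 0.32 and 0.78, beside a median of 0.58 for all members. Not every subunit shared the direction. Ndufs1 read 14517, 13641, 11347 and 18274 in scramblemiR and 9008, 13468, 14196 and 15873 in antimiR-224 (limma -0.15, SE 0.23, adjusted p 0.847), and was the 1 complex I gene below 0. Atp5g1 had the lowest ratio, with 413, 474, 43.4 and 22.8 in scramblemiR and 327, 15.9, 30.6 and 13.996 in antimiR-224, and it was high in the 3 libraries with high muscle genes. Cox6a2 was high in those libraries too: 2487, 2383, 0 and 5.44 in scramblemiR and 1953, 33.4, 21.5 and 15.2 in antimiR-224.

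Single libraries carried much of the size of this difference. AntimiR-224 library 3 was the highest of the 8 for 70 of 78 members and control library 1 the lowest for 68. The geometric mean of 74 members read 2825, 4172, 4250 and 3575 in scramblemiR and 5157, 4570, 7569 and 4414 in antimiR-224, with no overlap. Without antimiR-224 library 3 the median of the members was 0.39 and 0 members were called. Brown adipocyte markers, 8 of 10 recovered, summed to 18661, 23966, 28706 and 34652 in scramblemiR and 28547, 27061, 59805 and 34669 in antimiR-224. Erythroid markers summed to 494, 523, 17599 and 7114 and to 22151, 16351, 54273 and 1144. Library 3 was the highest for both lists, and their part in the members' difference was not tested. The brown list includes Cox7a1 and Cox8b, themselves complex IV genes. Without the 3 libraries high in muscle genes, 3 inhibitor libraries against 2 controls, every inhibitor library lay above every control in 44 of 78 members, against 13.2% of all genes. The median was then 0.50, and limma called 13 genes (0.0916%) and 0 members.

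**Figure D4:**
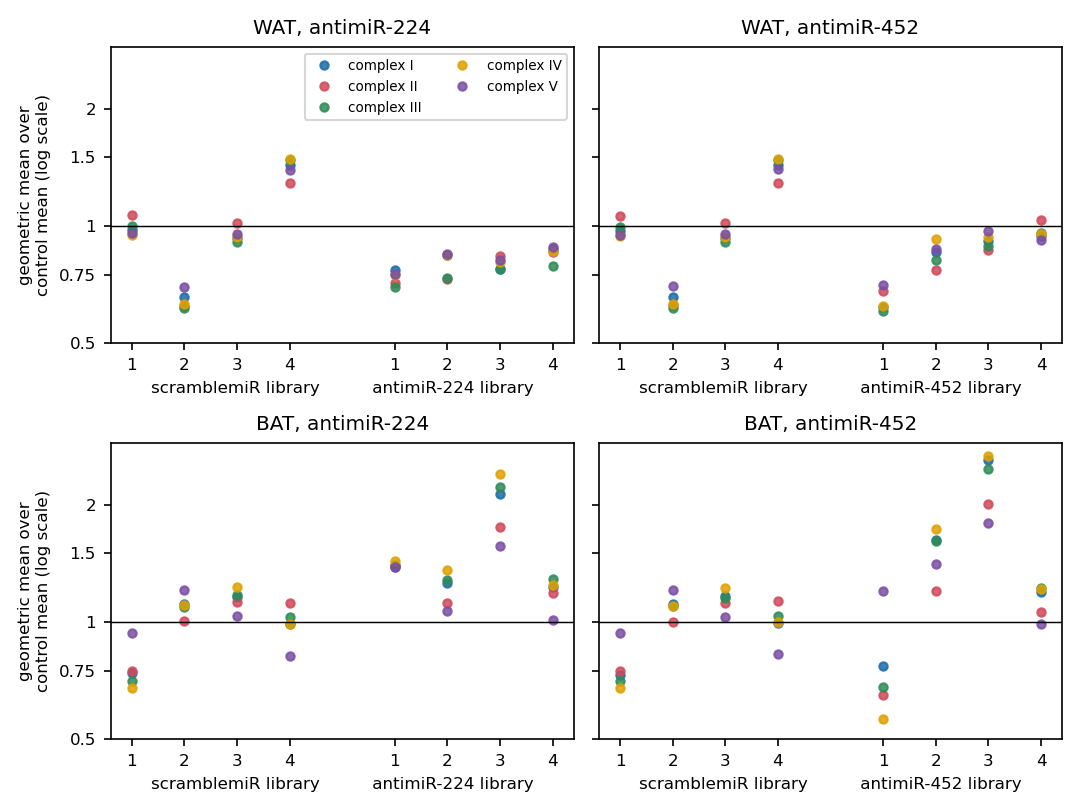
Geometric mean of each complex in each of the 8 libraries of a comparison, divided by the mean of the 4 scramblemiR libraries (log axis), in 4 panels for both inhibitors in WAT and BAT. Members without recovered reads and Cox6a2, Cox6b2, Cox7b2, Cox8c, Cox4i2 and Ndufa4l2 are left out. In the BAT antimiR-224 panel complexes I, III and IV do not overlap between groups, and library 3 is the highest inhibitor library for complexes I to V in both BAT panels.

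AntimiR-452 in BAT gave a like median and a wider spread, against the same controls. The authors' deposited table had 79 of 83 members with a ratio above 1, against 56.1% of genes, with a median log2 ratio of 0.62 for members and 0.06 for all genes. Of 24248 genes 0 passed the adjusted test (0.0%), and at an unadjusted p under 0.05 there were 0 members and 0.499% of genes. limma called 0 members and 0 genes, with 2 of 74 members and 559 of 14594 genes (3.83%) at an unadjusted p under 0.05, and a median of 0.46. Members without recovered reads were not in that fit. Among them, deposited log2 ratios were -0.33 for Ndufs1, -0.22 for Sdha, 0.10 for Atp5b, 0.11 for Atp5a1 and 0.36 for Uqcrc1. Cyc1, Ndufb9 and Cox4i1 had 0.43, 0.72 and 0.83. Ndufa5 was the 1 member of 74 with all 4 inhibitor libraries above all 4 controls, against 1.71% of genes. This accessory subunit of complex I read 1656, 2438, 2144 and 1829 in scramblemiR and 2492, 4069, 3907 and 2524 in antimiR-452 (limma 0.66, SE 0.25, adjusted p 1.0).

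Libraries of this group differed more among themselves than the controls. The geometric mean of 70 members read 2732, 5434, 8089 and 3966 in antimiR-452 and 2611, 3874, 3924 and 3329 in scramblemiR. Library 3 was the highest of the 8 for 63 of 74 members and library 1 the lowest for 30. Ndufa2 read 2052, 4492, 8078 and 2897 in antimiR-452 and 1568, 2499, 2445 and 1891 in scramblemiR (limma 0.89, SE 0.41). Ndufa13, an accessory subunit also known as Grim19, read 4369, 8260, 14663 and 5821 against 3039, 4652, 4736 and 3762 (ratio 2.05 in the authors' deposited table, unadjusted p 0.0881). Ndufb2 had the smallest p, 0.0871 in the authors' deposited table, with 977, 1775, 2869 and 1137 against 658, 1161, 1039 and 825. In these 3 genes library 1, or 1 and 4 together, lay near the controls.

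Brown adipocyte markers had the same order, with 10788, 35530, 60340 and 25289 in antimiR-452 libraries 1 to 4, and library 1 was the one with high muscle genes. The brown list includes Cox7a1 and Cox8b, themselves complex IV genes. The part of either list in the result was not tested. Without library 3 the median of the members was 0.24, and without library 1 it was 0.79. Without the libraries high in muscle genes every inhibitor library lay above both controls in 34 of 74 members, against 11.1% of all genes. Cox6a2 had the highest deposited ratio, with 9905, 89.3, 6.02 and 436 in antimiR-452 and 2503, 2394, 0 and 5.54 in scramblemiR, again led by libraries with high muscle genes. Its difference was 1.53 (SE 3.30) and turned to -0.28 without antimiR-452 library 1. Atp5g2 had the lowest ratio, with 23.3, 12.6, 22.2 and 17.7 against 13.7, 20.4, 11.03 and 5.17 in antimiR-452.

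**Figure D5:**
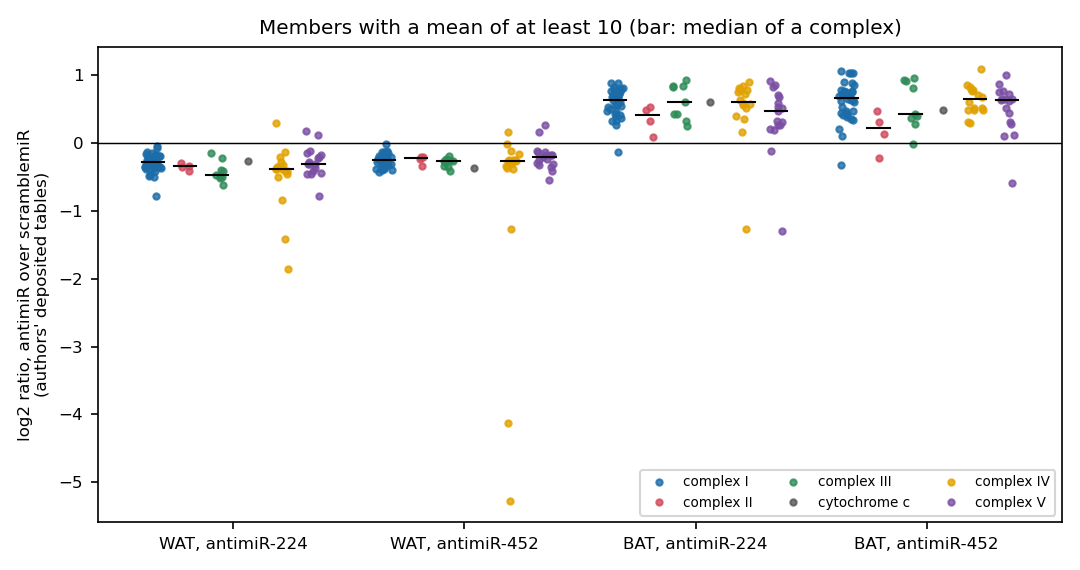
Log2 ratio of inhibitor over scramblemiR means for each nuclear member with a mean of at least 10, by complex, in the authors' 4 deposited tables (points; the line at 0 marks equal means). Most points lie below 0 in WAT (medians -0.33 and -0.26) and above 0 in BAT (0.58 and 0.62), and 0 members passed the adjusted test.

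The difference between tissues in the response was tested for each gene. From the ratios and p-values in the authors' deposited tables, the antimiR-224 effect in BAT minus that in WAT was above 0 for 81 of 83 members, with a median log2 of 0.92 (-0.05 for all genes). Of 18750 genes 0 passed (0.0%), and 14 members and 300 genes (1.6%) had an unadjusted p under 0.05. The smallest p was that of Cox5b, with -0.51 in WAT and 0.74 in BAT (difference 1.25, SE 0.53, unadjusted p 0.0179, adjusted p 1.0). For antimiR-452 the median was 0.86 (0.07 for all genes), 79 of 83 members were above 0, and 0 of 18814 genes passed (0.0%). There, 1 member and 185 genes (0.983%) had an unadjusted p under 0.05, the member being Ndufs6 (1.41, unadjusted p 0.0469). limma on recovered reads called 0 genes and 0 members for both inhibitors (0.0%), with 55 of 77 and 8 of 73 members at an unadjusted p under 0.05, beside 1284 of 14082 (9.12%) and 772 of 14181 genes (5.44%). A difference between tissues in the response of any 1 subunit was thus not shown.

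The 7 mt- genes with a mean of at least 10 in all 4 tables mostly had a ratio below 1. In both of the authors' deposited tables for WAT all 7 did, as did 52.9% and 56.8% of all genes with such a mean. Their median log2 ratios were -0.56 for antimiR-224 and -0.25 for antimiR-452, against -0.02 and -0.04 for all genes. In the authors' deposited tables for BAT, 5 of the 7 lay below 1 with antimiR-224 (median -0.07) and 7 of 7 with antimiR-452 (median -0.24). Of all genes, 8066 of 14537 and 6444 of 14672 lay below 1 there, with medians of -0.05 and 0.06. With the low counts of mt-Co2, mt-Co3 and mt-Atp6 included, 5 of 10 and 8 of 10 lay below 1 in BAT (medians 0.02 and -0.14). mt-Cytb had group means of 236400 and 142552 in WAT scramblemiR and antimiR-224, and of 666410 and 562781 in BAT, in the authors' deposited tables. mt-Nd5 had the lowest ratio in BAT, 0.646 with antimiR-224 (unadjusted p 0.463) and 0.639 with antimiR-452 (unadjusted p 0.715). mt-Nd6 had 1.16 and 0.826. Of the mt- genes 0 had an unadjusted p under 0.05 in any of the 4 tables. Per-library values of the abundant mt- genes could not be recovered in the inhibitor groups, so their spread is not shown.

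Other genes of the pathway were read from lists chosen with earlier results of these data known. Between the control tissues limma called 39 of 44 assembly factors higher in BAT and 0 lower (median 1.23), 12 of 13 genes of quinone synthesis higher (median 1.74), and 6 of 6 carriers of the inner and outer membrane. These stand beside 19.9% of all genes called higher. Of 24 regulators of respiratory genes, 17 were called higher and 0 lower. Ppargc1a, the coactivator of mitochondrial biogenesis, differed by 3.42, the orphan receptors Esrra and Esrrg by 2.64 and 5.82, the muscle and heart regulator Perm1 by 8.75, and the mitochondrial transcription factor Tfam by 0.95. Esrrg and Perm1 are also muscle genes, and the part of the BAT libraries high in muscle genes in these values was not tested. Nrf1 had -0.02 and was not called. Atpif1, the inhibitor protein of ATP synthase, was the 1 gene of these lists called lower in BAT (-1.59), opposite to the catalytic subunits it binds. In the 4 inhibitor comparisons 0 genes of these lists were called.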

How the data were processed

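Libraries of poly(A) RNA were made with a directional kit after Trizol extraction, per the labels' protocols. Per the submitters' processing notes the build was GRCm38.p4, and R 2.15.3 and DESeq 1.10.1 were used. How reads were aligned and counted is not given in the sources used here. Deposited by the authors were 4 tables, each holding, per the file headers, the normalized count averaged over a group as a mean signal, the deposited ratio of means, its deposited log2 value, and a p-value before and after adjustment. Each table was normalized separately, so values are compared within a table.

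The design assumed that reads per library could be recovered, and they were: a printed mean weights 4 whole read numbers by fixed size factors, which low genes gave, and each mean was then decoded into its reads. Where several solutions remained, the 1 that gave the p-value of the authors' DESeq test was kept. This recovered 99.68% to 99.87% of genes, with means rebuilt within a relative error of 4.8e-12. For the 26528 gene solutions found from means of at least 300 alone, the authors' p-value was recomputed within a relative error of 0.001 in each. On a simulated BAT antimiR-452 table, 24076 of 24153 genes (99.68%) were recovered and 0 of them wrongly. An earlier simulation had given wrong reads for some genes. After that was seen, the simulation's rounding was matched to the files. The decoding was also changed to drop a sole solution that does not give the deposited p-value. The result is therefore not an independent check, and the other tables were not simulated for it. The closest pair of libraries had a chi-square per degree of freedom of 24.1, so no pair agreed within sampling noise. Reads are not marked by molecular identifiers, so a floor of 3 reads covers counting error only.

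limma 3.58.1 in R 4.3.3 (trend and robust variance) tested log2(normalized count + 1), so folds of low genes are understated, for genes with a mean of at least 10. Benjamini-Hochberg adjustment ran over all genes, with a threshold of 0.05. On simulated data it called 56 of 100 2-fold and 91 of 100 4-fold changes between the tissues, with 5 false calls. In the inhibitor comparisons it called 21 to 65 of 100 2-fold and 86 to 98 of 100 4-fold changes. Control libraries of both tissues were scaled together by the median of ratios. The difference between tissues in the response used the deposited log2 ratios, each with a standard error implied by its p-value, and limma as an alternative. These tests and the fit between the control tissues treat the tissues as independent, although some mice may have given both. Some library numbers in the file headers recur in both tissues, and whether they name mice is not given. Exon lengths, symbols (99.42% of identifiers matched) and 50-base stretches shared with transcripts of other genes came from the reference annotation. Sequences came from RefSeq GRCm38.p6, and motif letters were shortened to at most 9 after matches with longer ones had been seen. Python 3.11.15, numpy 2.4.6, pandas 2.3.3 and scipy 1.17.1 were used.

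The members and the lists of pathway and marker genes were chosen with earlier results of these data known. Named are the mt- genes, the core subunits, the paralogue sets, the 3 members with the smallest deposited p and the extreme ratios in each table. Between tissues they are the 5 largest differences and the members not called with a mean of at least 100. Members whose inhibitor libraries do not overlap the controls are named too, and 1 member that the rule names is not reported here. Ndufv1, Ndufa2 in the tissue comparison, the common isoforms and the pathway genes were named after their values were seen. Alternatives tried were a pseudocount of 0.5 or 5, a minimum mean of 0 or 50, 3 other scalings, each library left out in turn, and, chosen after the data were seen, the libraries high in muscle, sperm-lineage or epithelium genes left out.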

Additional observations from a re-analysis of the deposited data

Results flagged for a closer look

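In a group of 4, a library was picked out when its gap to the nearest other library passed Dixon's limit at the 95% level for 4 values. Of 170 groups of values (complexes and named genes), 14 were picked out, and chance alone flags about 1 in 20 groups. Cox6a2 and Atp5g1 stood out through library 1 of the BAT inhibitor groups, the libraries high in muscle genes. Cox6a2 read 1953 in antimiR-224 and 9905 in antimiR-452, against 15.2 to 33.4 and 6.02 to 436 in the other 3, and Atp5g1 read 327 and 1399, against 13.996 to 30.6 and 33.1 to 79.6. In WAT scramblemiR library 2 the testis isoforms Cox6b2 and Cox8c read 667 and 319, against 36.8 to 75.1 and 0 in the others.

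BAT antimiR-224 library 3 stood above the others in the geometric means of complex III, 20874 against 12044 to 13161, and of complex IV, 13055 against 6790 to 7817. BAT scramblemiR library 1 was low for cytochrome c, 366 against 602 to 630, and for Sdhb, 11036 against 16252 to 17003. In WAT, antimiR-452 library 1 was low for complex IV, 1838 against 2744 to 2823, for Ndufa13, 1713 against 2526 to 2665, and for Ndufa2, 1101 against 2059 to 2099. AntimiR-224 library 1 was low for Cox5a in WAT, 1810 against 2094 to 2132.

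Over the control mean, the geometric means of complexes I to V lay below 1 in every WAT antimiR-224 library and above 1 in every BAT one. Single control libraries overlapped the inhibitor libraries in each complex in WAT and in complexes II and V in BAT. The highest WAT inhibitor library reached 0.865 for the 79 members averaged, and the lowest BAT inhibitor library 1.19 for 74. By complex, the highest in WAT were 0.873 for I, 0.856 for II, 0.787 for III, 0.864 for IV and 0.884 for V. The lowest in BAT were 1.23, 1.12, 1.28, 1.25 and 1.011. These differences between tissues in the geometric means were not tested, and the tests gene by gene called 0 members.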

How the results depend on the processing

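Libraries left out are named by their number within the group, as above. The count of 75 members higher in BAT was 72 to 75 under the other scalings and 74 or 75 without any 1 library, and the count of 0 members called in each inhibitor comparison held without any 1 library. The median difference between tissues, 2.0, was 1.47 with total-read scaling and 1.61 with total reads outside mitochondrial genes. Without 1 library at a time, the members' median ran from -0.45 to -0.084 for antimiR-224 in WAT. All genes called for antimiR-452 in WAT ran from 0 to 542, the last without antimiR-452 library 4. With the libraries high in sperm-lineage genes left out, limma called 1391 genes and 3 members lower for antimiR-224 in WAT, with a median of -0.49. Without those high in epithelium genes 48 members lay below 0 for antimiR-452, and Atp5g2 and Sdhb turned to -0.48 and 0.057. Without those high in muscle genes 13 genes were called for antimiR-224 in BAT, and 1 member, Atp5g1, was called lower in BAT than in WAT. The cause of these changes was not tested.

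Other directions turned as follows. Between tissues Atp5g3 was -0.43 and -0.29 with both total scalings, -0.03 without BAT library 2, -0.15 without WAT library 2, the one high in sperm-lineage genes, -0.16 without the muscle libraries, and up to 0.37 without WAT library 4. Atp5s was -0.14 and -0.00529 with both total scalings. Ndufa4l2 was -0.33 and -0.20 there, -0.010 without BAT library 3, -0.00435 without WAT library 1, and up to 0.37 without BAT library 1. Atp5g1 was 0.44 and 0.74 without BAT libraries 3 and 4 and 0.15 without WAT library 4, Cox6b2 was 0.49 without WAT library 2, and leaving out each library in turn took them over -0.69 to 0.74 and -0.88 to 0.49. Cox8c for antimiR-224 in WAT was -0.25 without antimiR-224 library 3 (to 2.92 without others). Cox6a2 for antimiR-452 in BAT was -0.28 and -0.57 without antimiR-452 library 1 and scramblemiR library 3, and up to 3.21 without antimiR-452 library 3. Between tissues Cox6a2 was called higher without BAT library 3 (7.52, adjusted p 0.0320). The ratio of complex IV between tissues, 2.73, was 4.55 for its median gene. No paired analysis was possible because recovered libraries cannot be tied to the replicate numbers in the sample titles. Counting error weighs most on members with few reads, the rare isoforms and also Atp5l (18.5 to 40.8 in WAT controls), and 1 to 9 of the most abundant members per table had no recovered reads in 3 of the 4 tables.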
